A study of Mus musculus with 6 samples.

Results

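The comparison described here spans the whole beige differentiation course, from confluent precursor cells at day 0 to the cultures at day 6. It rests on 4 of the 6 libraries of the series, 2 per day, chosen by the day in their titles, and it covers all 45808 gene lines of the count table, of which 14459 held enough counts to be tested. The cells were mouse stromal-vascular cells, the mixed fraction of fat tissue that contains the adipocyte precursors, taken from inguinal white fat; the mice were males aged 8 weeks, labelled WT (wild-type). No library of another genotype enters any comparison here, although the title of the series concerns Naa10. At day 0 the cells were confluent and had received no inducers. The day 6 cells had spent the first 2 days in induction medium with 0.5 mM IBMX (a phosphodiesterase inhibitor that raises cyclic AMP), 5 µM dexamethasone (a glucocorticoid), 125 µM indomethacin (a cyclooxygenase inhibitor), 850 nM insulin, 1 nM of the thyroid hormone T3 and 1 µM rosiglitazone (a PPAR gamma agonist). For the remaining days the medium held only insulin, T3 and rosiglitazone of these. The days therefore differ both in time and in medium, and the effects of differentiation and of the drugs still present at day 6 cannot be told apart. The libraries of each day are numbered 76 and 77, and paired values below are always given in that order. The submitters call the libraries of a day biological replicates. No label says whether a number stands for its own mouse or dish, and the p-values cover only how far these libraries differ from each other.

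Adipocytes form from fibroblast-like precursors that leave the cell cycle, take down their stress fibres and fibrous matrix, and switch on PPAR gamma and C/EBP alpha, the nuclear factors that activate genes of lipid uptake, synthesis and storage. Beige adipocytes are the fat cells of white depots that can turn to heat production: they hold many mitochondria, burn fatty acids, and when stimulated by noradrenaline through the beta-3 adrenergic receptor they make UCP1, the protein that lets protons leak across the inner mitochondrial membrane. PGC-1 alpha, the product of Ppargc1a, is the coactivator that couples this stimulus to mitochondrial genes.

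The cultures passed from fibroblast markers to adipocyte markers. The summed level of 6 adipocyte markers (Adipoq, Fabp4, Plin1, Cidec, Lpl and Pparg) was 803 and 918 CPM at day 0 and 44887 and 37653 CPM at day 6, where CPM is the count scaled to library size with TMM factors. The 8 fibroblast and progenitor markers took the opposite course, with summed levels of 77657 and 69148 CPM at day 0 and 7739.8 and 11909 CPM at day 6. The groups do not overlap in either sum. Lymphocyte and epithelial markers were near the floor of detection: 8 lymphocyte markers summed to 0.364 and 0.371 CPM at day 0 and 0.313 and 0.299 CPM at day 6, 6 epithelial markers to 0.298 and 0.371 CPM at day 0 and 0.0893 and 0.0997 CPM at day 6, and none held enough counts to be tested. Of 9 tested endothelial markers 6 were lower (3 without library 76 of day 0) and 1 higher at day 6, the latter Egfl7 (from 2.28 and 1.89 to 22.4 and 19.5 CPM). Of 9 mural (pericyte and smooth muscle) markers 6 were lower and 3 higher, and of 4 skeletal muscle markers 3 were lower. Among all genes tested 35.9% were higher and 35.1% lower at day 6. In bulk RNA fewer cells of a type and less RNA per cell cannot be told apart, and this holds for every level below.

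Most tested genes differed between the days. With edgeR (quasi-likelihood test) 10253 of 14459 genes (70.9%) passed an adjusted p of 0.05, 5184 (35.9%) higher at day 6 and 5069 (35.1%) lower. With so many calls the size of a change tells more than the call, and a test against a change of 2-fold was passed by 3888 genes (26.9%), 2109 higher and 1779 lower. The large changes were mostly rises: the fitted change exceeded 16-fold for 434 genes that rose and 85 that fell, and 64-fold for 186 and 16. The genes that rose beyond 2-fold held 6.92% and 7.19% of all counts at day 0 and 48.7% and 43.1% at day 6, while those that fell beyond 2-fold went from 32.5% and 31.5% to 4.97% and 7.25%. Of the 14459 genes, 3495 (24.2%) had a 95% interval of the change that lay within 1.5-fold on either side. The median log2 change of all genes tested was -0.01. The libraries of the days did not overlap for 12566 of the 14459 genes, so that a lack of overlap was the common case.

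**Figure D1:**
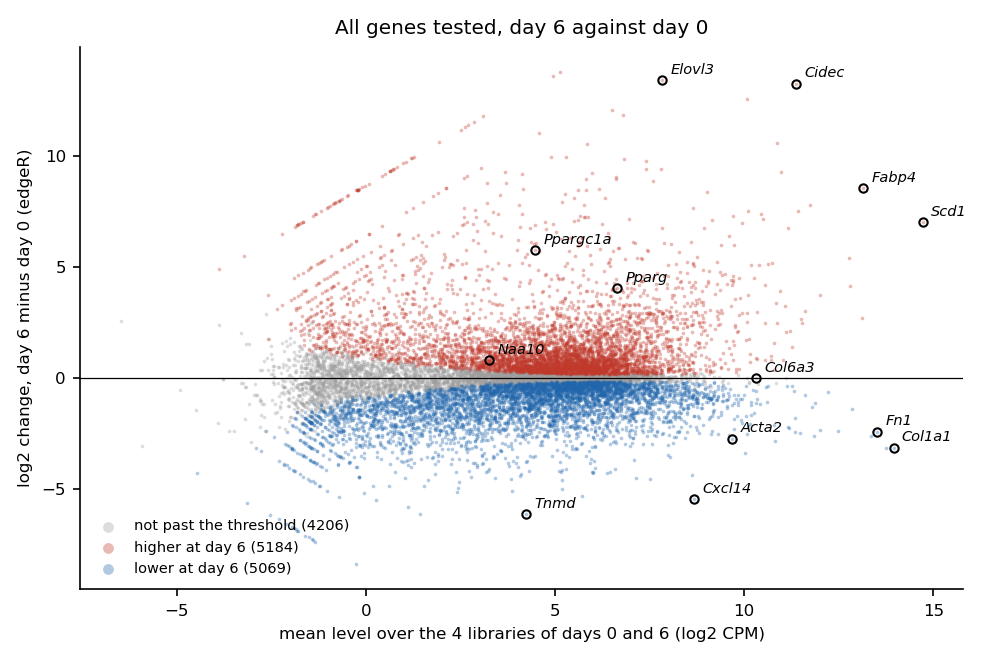
Each point is 1 tested gene, placed by its mean level over the 4 libraries of days 0 and 6 (log2 CPM) and by its fitted log2 change, with 1 gene left out whose 4 libraries were all at 0. Red points were higher (5184) and blue points lower (5069) at day 6, grey points did not pass the threshold (4206), and the tallest changes, such as Cidec and Elovl3, lie on the side of rises.

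How the libraries are scaled bears on the small changes. With library totals alone in place of TMM the median log2 change moved by -0.25, and the calls went from 5184 higher and 5069 lower to 3967 higher and 6476 lower. The medians of the lists kept their sign under that scaling, except for the 4 lists of UCP1-independent heat production, G1 cyclins and CDK inhibitors, interferon-stimulated genes and clock genes. Counts in genes ranged from 22522221 to 29458374 per library, and TMM factors from 0.849 to 1.04. The mitochondrial genome held 0.502% and 0.555% of gene counts at day 0 and 3.88% and 3.14% at day 6. The day 6 libraries resembled each other less than those of day 0: 631 genes (4.36%) differed more than 2-fold between the day 6 libraries, against 315 (2.18%) at day 0. They differed by list: in library 76 the median was 0.23 higher than that of library 77 for the adipocyte list and 0.41 higher for the mitochondrial genome on the log2 scale, and the progenitor list differed by -0.57. Macrophage markers differed most, with summed levels of 58.6 and 50.8 CPM at day 0 and 166 and 67.9 CPM at day 6. Of the 13 tested macrophage markers 8 were called higher, but only 2 without library 76 of day 6, 2 without library 77 of day 0 and 3 without library 76 of day 0. Their part in the results below was not tested.

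**Figure D2:**
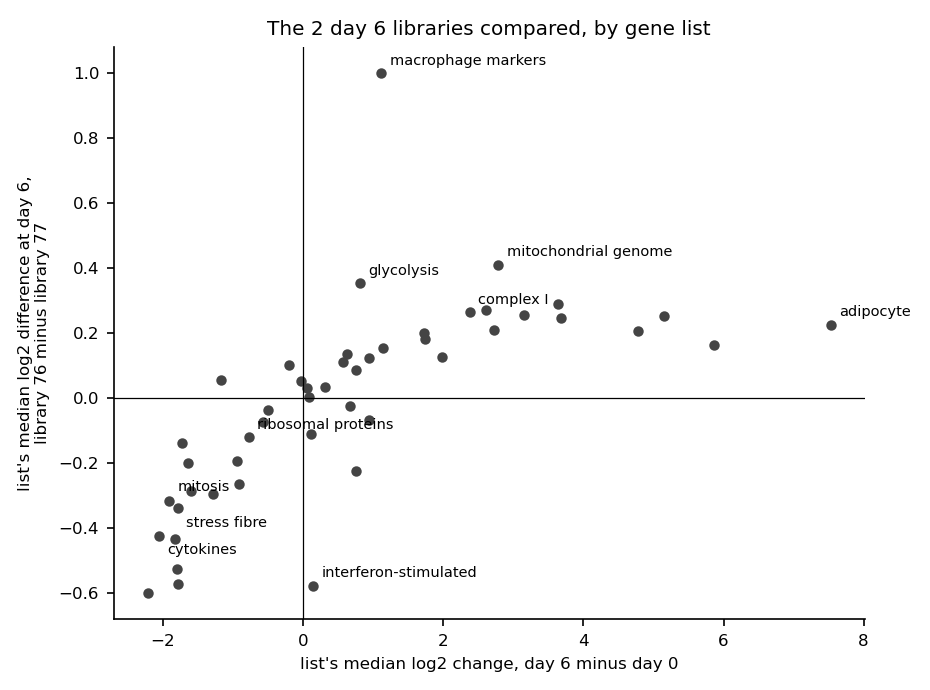
Each point is a gene list of at least 8 tested genes, placed by its median log2 change between the days and by the median log2 difference between library 76 and library 77 of day 6. Adipocyte genes (0.23) were higher in library 76 and progenitor markers (-0.57) lower, and the macrophage markers had the largest difference (1.00).

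Most transcription factors of adipocyte formation rose. Of 25 tested, 18 rose and 5 fell, with a median log2 change of 0.75. Pparg, the master regulator and the receptor for rosiglitazone, stood at 11.1 and 11.98 CPM at day 0 and 203 and 173 CPM at day 6 (log2 change 4.03, SE 0.11, adjusted p = 3.79e-08). Its partner Cebpa stood at 230.5 and 283 CPM at day 0 and 1955 and 1873 CPM at day 6, and the days do not overlap for either gene. On the scale of CPM per kilobase of exon Cebpa had the higher mean level at day 6, with 726 against 63.7 for Pparg. The scale allows only a rough comparison of different genes, as its length joins all annotated exons of a gene. The factors of lipid synthesis rose as well: Mlxipl, which encodes the glucose-sensing factor ChREBP, went from 0.563 and 0.988 to 134 and 100.4 CPM (log2 change 7.27, SE 0.23, adjusted p = 6.35e-08), Nr1h3, the oxysterol receptor LXR alpha, from 8.14 and 7.82 to 165 and 147 CPM, and Srebf1 from 158 and 152 to 1111 and 1047 CPM. Zbtb16, a zinc finger factor induced by glucocorticoids, was nearly silent at day 0 and rose from 0.331 and 0.288 to 117 and 107 CPM (log2 change 8.47, SE 0.13, adjusted p = 1.25e-08), although dexamethasone was in the medium only for the first 2 days.

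Cebpb and Cebpd, which act in the first hours of adipocyte formation, were lower at day 6 than at day 0. Cebpd fell from 138 and 144 to 39.3 and 47.2 CPM (log2 change -1.71, SE 0.10, adjusted p = 1.31e-06) and Cebpb from 116 and 117 to 55.3 and 64.2 CPM (log2 change -0.96, with 20.7% of its exonic length shared with an overlapping gene). Klf4 and Ebf3 fell too, by 0.84 and 0.45 on the log2 scale. Ebf1, an early B-cell factor that is active in precursors and adipocytes alike, did not pass the test, at 183 and 193 CPM at day 0 and 200.3 and 214 CPM at day 6. Prdm16 and Ebf2, which specify brown and beige fat, rose modestly, Prdm16 from 6.29 and 5.93 to 11.2 and 9.32 CPM (log2 change 0.75, SE 0.16, adjusted p = 0.00255) and Ebf2 from 29.5 and 24.4 to 47.4 and 40.3 CPM.

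**Figure D3:**
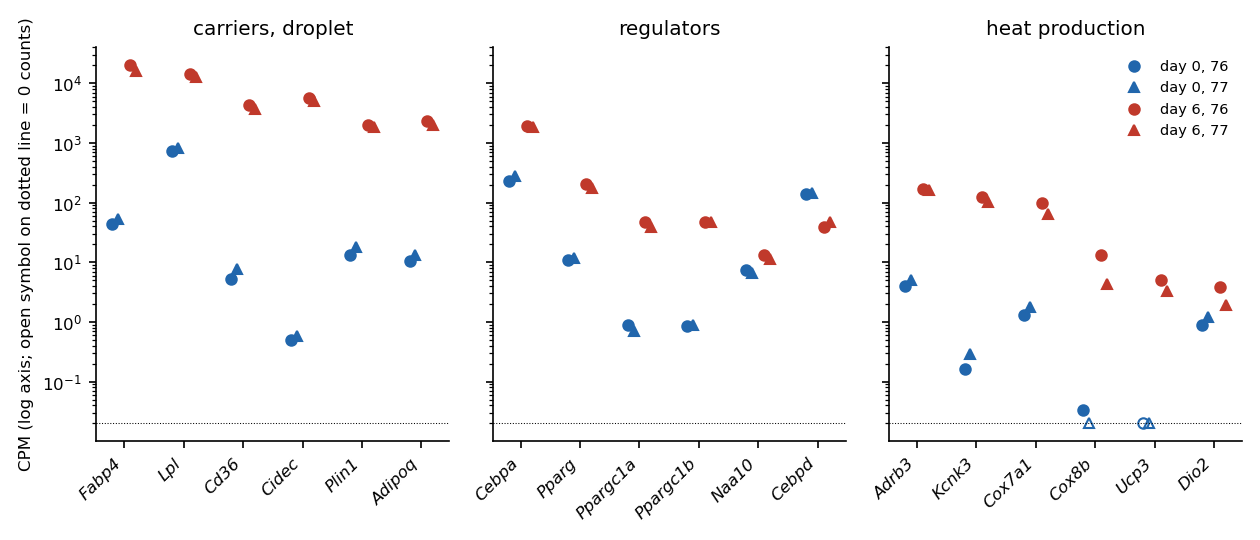
CPM on a log axis in each library for genes of lipid handling, regulators and heat production, with day 0 in blue and day 6 in red, circles for library 76 and triangles for library 77, and open symbols for 0 counts. All genes drawn were higher at day 6 in both libraries except Cebpd, which was lower.

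Adipocyte genes rose together and by large factors. Of 27 tested, 26 rose and none fell, 25 of them beyond 2-fold, with a median log2 change of 7.53 against -0.01 for all genes tested. The days do not overlap for any of the 27, as for 12566 of the 14459 genes tested. Cidec, which fuses small lipid droplets into large ones, stood at 0.496 and 0.576 CPM at day 0 and 5581 and 4970.2 CPM at day 6 (log2 change 13.26, SE 0.20, adjusted p = 1.25e-08), among the largest rises of the whole table. Fabp4, the fatty acid carrier of fat cells, went from 43.5 and 53.6 to 20311 and 15943 CPM, Cd36, the fatty acid transporter of the cell surface, from 5.2 and 7.82 to 4319 and 3693 CPM, and Lpl, the lipase that frees fatty acids from lipoproteins, from 725 and 820.0 to 14461 and 12674 CPM. Lpl was already abundant at day 0, and its rise was smaller (log2 change 4.13) than that of Fabp4 (8.55). The hormone genes Adipoq (adiponectin) and Retn (resistin) rose from 10.4 and 13.2 to 2301 and 2030.0 CPM and from 0.463 and 0.865 to 509.8 and 380.1 CPM. Leptin (Lep), the hormone of large white fat cells, had 0 counts at day 0 and only 0.134 and 0.15 CPM at day 6, too little to test, and Nnat, neuronatin, did not change beyond its error (2.42 and 2.26 CPM at day 0 and 2.19 and 1.79 CPM at day 6; log2 change -0.23, 95% interval -0.79 to 0.33).

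Genes of the lipid droplet rose too. Of 16 tested genes of lipolysis and the droplet coat, 14 rose and 1 fell (median log2 change 5.86). Among the coat proteins Plin1, the perilipin of mature adipocytes, rose from 13.04 and 18.2 to 2030.3 and 1862 CPM, Plin4 from 9.2 and 11.9 to 1783 and 1514 CPM and Plin2 from 73.5 and 71.8 to 1606 and 1468 CPM. Plin3, the perilipin of many cell types, was the 1 member that was lower, by a small amount, with a mean of 90.97 ± 1.38 CPM at day 0 and 78.6 ± 0.0548 at day 6 (SD, n = 2; edgeR log2 change -0.21, adjusted p = 0.0149). The call of Plin3 was lost when either library of day 0 was left out. Plin5, which ties droplets to mitochondria, had 1 and 0 counts at day 0 and 1224 and 832 at day 6, a ratio of 2639.6 with an exact 95% counting interval of 473 to 104307. The lipases Pnpla2 (ATGL) and Lipe (HSL), which cut stored triglyceride, rose from 28.3 and 30.1 to 5684 and 5158 CPM and from 7.94 and 8.48 to 1204 and 1062 CPM, together with G0s2, the inhibitor of ATGL (from 22.7 and 22.2 to 656 and 555 CPM), and Abhd5, its activator (from 36.6 and 36.7 to 648 and 580.5 CPM).

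Fatty acid and triglyceride synthesis gained more CPM than any other list examined. Its 24 tested genes summed to 3163 and 3318 CPM at day 0 and 112473 and 88103 CPM at day 6, and 23 rose and none fell (median log2 change 4.78). Scd1, the desaturase that makes oleate, stood at 402 and 425 CPM at day 0 and 62013 and 45312 CPM at day 6 (log2 change 7.02, SE 0.23, adjusted p = 6.98e-08), which is the largest gain in CPM of any gene. Fasn, fatty acid synthase, rose from 300.1 and 336 to 14459 and 12702 CPM, Acly, which supplies its acetyl-CoA, from 398 and 425 to 4556 and 3239 CPM, and Thrsp, the lipogenic protein Spot 14, from 0.331 and 0.371 to 2759 and 1571 CPM. Acsl1, which activates fatty acids, went from 29.3 and 31.2 to 7036 and 6515 CPM, and the acyltransferases Agpat2 and Agpat9 from 19.6 and 20.9 to 3111 and 2651 CPM and from 0.728 and 0.412 to 159.6 and 161 CPM. The elongases of this list moved far less: Elovl6 rose from 35.1 and 41.6 to 55.9 and 59.6 CPM, and Elovl5 did not pass the test (106 and 111 CPM at day 0 and 123 and 119.6 CPM at day 6). Among carriers and receptors of lipid uptake 13 of 17 rose and 4 fell. The 4 that fell were Lrp1, a large endocytic receptor (from 3995 and 4112 to 959.6 and 1329.6 CPM; log2 change -1.82, SE 0.17, adjusted p = 1.99e-05), Fabp3, Acsl4 and Acbd3. With DESeq2, or without library 76 of day 0, library 77 of day 0 or library 76 of day 6, 3 were called lower, and with library totals alone 11 were called higher.

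Glycerol, the backbone of triglyceride, is made in fat cells from glycolytic intermediates or from pyruvate. Of 12 tested genes of this route 10 rose and 1 fell (median log2 change 3.64). Gpd1, which makes glycerol 3-phosphate, went from 1.69 and 3.33 to 3898 and 3619 CPM and Pcx, pyruvate carboxylase, from 39.9 and 45.00 to 5084 and 3975 CPM. The cytosolic and the mitochondrial PEP carboxykinase moved in opposite directions. Pck1, the cytosolic form, had 1 and 0 counts at day 0 and 178 and 116 at day 6, and Pck2, the mitochondrial form, fell from 194 and 169 to 54.4 and 55.1 CPM (log2 change -1.73, SE 0.08, adjusted p = 5.5e-07). Aqp7, the channel through which fat cells release glycerol, rose from 0.43 and 0.535 to 118 and 98.3 CPM.

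Cholesterol synthesis rose in part. Of 24 tested genes 17 rose and 2 fell, with a median log2 change of 0.94. Insig1, the sterol sensor that holds SREBP back, changed most (from 139 and 149 to 1861 and 1644 CPM), followed by the enzymes Pmvk (from 18.2 and 19.5 to 212 and 161 CPM), Dhcr7 (from 31.7 and 36.02 to 291 and 299 CPM) and Cyp51 (from 165 and 179.7 to 1214 and 978 CPM). Srebf2, the factor that drives this pathway, fell from 269 and 287 to 131 and 160.1 CPM (log2 change -0.94, SE 0.10, adjusted p = 6.19e-05), the opposite direction to Srebf1.

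Mitochondrial genes rose almost without exception. All 36 tested nuclear subunits of complex I rose, by log2 changes of 1.24 to 3.02, as did all 39 of complexes II to V (0.95 to 4.62), and the medians were 2.38 and 2.62. All 12 tested protein genes of the mitochondrial genome rose as well, with a median of 2.79, and whether the 3 medians differ was not tested. Summed over complex I, the nuclear subunits gave 1544 and 1552 CPM at day 0 and 8873 and 7339.6 CPM at day 6. Ndufv1, which takes electrons from NADH, went from 63.6 and 65.8 to 574 and 479 CPM, the Rieske protein gene Uqcrfs1 of complex III from 43.3 and 42.7 to 794 and 673 CPM, and Atp5b, the catalytic subunit of ATP synthase, from 674 and 695 to 6008 and 5075 CPM. Cytochrome c (Cycs) changed most among complexes II to V, at 52.4 and 53.6 CPM at day 0 and 1432 and 1173 CPM at day 6 (log2 change 4.62, SE 0.13, adjusted p = 3.79e-08), with 26.1% of its 50-base stretches also found in annotated transcripts of other genes (GENCODE vM21).

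Within the mitochondrial genome the levels spanned a wide range. mt-Co1 rose from 2282 and 2493 to 17375 and 13451 CPM, mt-Nd1 from 557 and 598 to 8776 and 6455 CPM and mt-Cytb from 741 and 847 to 5665 and 4317 CPM, but mt-Co2, mt-Co3 and mt-Atp6 were listed at 0.894 to 16.6 CPM in all 4 libraries. These genes share 100.0%, 99.9% and 99.5% of their 50-base stretches with transcripts of other annotated genes, against 0% for mt-Nd1. The share of alignments set aside as not unique was 4.42% and 4.16% at day 0 and 9.05% and 7.50% at day 6. Its part in the levels of these genes was not tested.

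The enzymes that feed the chain rose with it. All 22 tested genes of the citrate cycle and pyruvate dehydrogenase rose (median log2 change 3.16), among them Idh3a (from 34.5 and 38.99 to 1114 and 948 CPM), Pdhb (from 52.9 and 55.2 to 1548 and 1204 CPM) and citrate synthase, Cs (from 149 and 162 to 2217 and 1874 CPM). Idh2, the NADP-linked isocitrate dehydrogenase, rose least (from 66.2 and 68.96 to 93.6 and 84.2 CPM; log2 change 0.40, SE 0.09, adjusted p = 0.00314). Of 27 genes of fatty acid oxidation 26 rose (median 3.68). The 1 that was lower was Cpt1a (72.2 and 66.7 CPM at day 0 and 51.3 and 59.6 CPM at day 6; log2 change -0.33, SE 0.10, adjusted p = 0.019), the liver form of the entry enzyme. The call of Cpt1a was lost without library 76 of day 0 and without library 76 of day 6. The muscle and brown fat form of the enzyme, Cpt1b, rose from 0.0993 and 0.124 to 5.63 and 4.24 CPM, although another gene overlaps 81.4% of its exons. Medium-chain acyl-CoA dehydrogenase (Acadm) rose from 45.5 and 47.2 to 1456 and 1079.8 CPM. All 21 tested genes of branched-chain amino acid breakdown, a fuel route that is prominent in fat cells, rose as well (median 2.73), led by Aldh6a1 (from 35.3 and 36.6 to 788 and 634 CPM). The 22 tested peroxisome genes all rose, with a smaller median of 1.73 and with Pex16 in front (from 12.8 and 12.9 to 337 and 277 CPM). With library totals alone 21 of the 22 citrate cycle genes and 19 of the 22 peroxisome genes were called higher.

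The regulators of mitochondrial growth were uneven. Of 20 tested 16 rose and 2 fell. Ppargc1a went from 0.894 and 0.7 to 47.7 and 39.6 CPM (log2 change 5.75, SE 0.17, adjusted p = 4.81e-08), and its relative Ppargc1b from 0.861 and 0.906 to 46.8 and 47.01 CPM (log2 changes 5.75 and 5.73, with 95% intervals of 5.36 to 6.15 and 5.34 to 6.11). Pprc1, the third member of this coactivator family, fell from 56.9 and 52.2 to 18.4 and 25.5 CPM (log2 change -1.32, SE 0.13, adjusted p = 3.94e-05). Esrra, the orphan receptor ERR alpha that PGC-1 proteins activate, rose from 44.6 and 45.00 to 221 and 190.0 CPM, while Nrf1, a factor of respiratory genes, was slightly lower at 22.4 and 19.6 CPM at day 0 and 15.99 and 15.4 CPM at day 6. Tfam, which packages mitochondrial DNA, rose from 22.7 and 24.2 to 42.5 and 39.1 CPM, a smaller change than that of the mitochondrial genes themselves. Opa1 and Mfn2, which fuse mitochondria, rose from 49.8 and 53.7 to 235 and 212 CPM and from 93.3 and 96.1 to 387 and 345 CPM.

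Genes of heat production rose without Ucp1. Of 22 tested genes known from brown and beige fat 20 rose and 1 fell. Their median on the log2 scale was 5.15, and 4.71 once genes with no counts at day 0 were set to their bound. Ucp1 itself had 0 and 0 counts at day 0 and 1 and 0 at day 6. A count of 0 in a library allows up to 3 counts, or 0.0993 to 0.150 CPM in these libraries, so Ucp1 was at the limit of detection on both days. Cidea, another classical marker of brown and beige fat, had 0 counts at day 0 and 21 and 6 counts (0.938 and 0.299 CPM) at day 6, at least 5.55-fold above the floor, but it did not pass the filter on low counts. Elovl3, an elongase of brown fat, rose from 2 and 0 counts to 10000 and 9437, that is to 447 and 470.4 CPM, a ratio of 12477 (exact 95% counting interval 3454 to 103033). The respiratory subunits of brown fat and muscle, Cox7a1 and Cox8b, rose from 1.32 and 1.77 to 97.4 and 64.01 CPM and from 0.0331 and 0 to 13.1 and 4.29 CPM. Cox8b had 1 and 0 counts at day 0 and 294 and 86 at day 6, a ratio of 488 (exact 95% counting interval 87.04 to 19319), and its day 6 libraries lay far from each other.

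Signalling genes of heat production rose as well. Adrb3, the beta-3 adrenergic receptor, stood at 4.005 and 5.15 CPM at day 0 and 169 and 159.8 CPM at day 6 (log2 change 5.18, SE 0.16, adjusted p = 5.84e-08), and another gene overlaps 24.9% of its exons. Kcnk3, a potassium channel that restrains adrenergic signalling, rose from 0.165 and 0.288 to 122 and 104 CPM. Dio2, which turns thyroxine into T3, rose less (from 0.894 and 1.19 to 3.84 and 1.89 CPM; log2 change 1.49, SE 0.35, adjusted p = 0.00514), and its change was not beyond 2-fold by the test against that size. Ucp3, a relative of Ucp1 found in muscle and brown fat, went from 0 counts to 112 and 67, at least 37.4-fold higher, and Ucp2 rose from 4.04 and 2.76 to 139.7 and 101 CPM. The 1 member that fell was Fabp3, a lipid carrier known from muscle, at 1.46 and 1.89 CPM at day 0 and 0.313 and 0.997 CPM at day 6 (log2 change -1.37, SE 0.47, adjusted p = 0.0293; 37.3% of its 50-base stretches are shared). This call was lost in 4 of the 10 alternative analyses, and the log2 change of Fabp3 was -0.73 without library 76 of day 6 and -2.39 without library 77 of day 6.

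Heat can also be made without UCP1, by futile cycles of creatine, calcium or triglyceride. Of the 8 tested genes of these cycles 2 rose and 4 fell (25% and 50%, against 35.9% and 35.1% of all genes tested). Gyk, the glycerol kinase of the triglyceride cycle, rose from 7.35 and 8.36 to 119 and 119 CPM (log2 change 3.93, SE 0.10, adjusted p = 2.85e-08) and Gamt, which makes creatine, from 16.02 and 17.5 to 25.3 and 23.1 CPM. The phosphatase Alpl, the brain-type creatine kinase Ckb and the creatine transporter Slc6a8 fell from 60.5 and 76.2 to 2.81 and 4.34 CPM, from 59.5 and 64.6 to 17.4 and 18.8 CPM and from 141 and 149 to 52.5 and 66.95 CPM, with the days apart for all 3. Atp2a2, the calcium pump, was lower by 0.22 on the log2 scale (425 and 431 CPM at day 0 and 352 and 381 CPM at day 6), and this call was lost in 4 of the 10 alternative analyses. The list's median of 0.12 turned to -0.13 with library totals alone and to -0.58 without library 76 of day 6.

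Genes proposed as selective markers of beige cells were split as well, 7 of 15 rising and 6 falling (46.7% and 40%, against 35.9% and 35.1% of all genes tested). Those that rose included Slc27a1, a fatty acid transporter (from 22.4 and 19.6 to 1387 and 1270.1 CPM), Aqp7 and Kcnk3, together with Mtus1 (from 12.7 and 13.4 to 265 and 247 CPM). Those that fell included a surface marker and homeobox genes: Tmem26 went from 4.77 and 3.25 to 0.223 and 0.399 CPM (log2 change -3.69, SE 0.40, adjusted p = 5.62e-05), Shox2 from 86.6 and 70.6 to 39.1 and 30.5 CPM and Hoxc9 from 33.7 and 31.3 to 14.7 and 17.8 CPM. Tbx1, often used to tell beige from white and brown cells, did not pass the test, at 3.11 and 3.66 CPM at day 0 and 2.77 and 2.24 CPM at day 6. Cited1 rose but stayed low (0.0662 and 0.0412 CPM at day 0 and 0.536 and 0.548 CPM at day 6).

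The amino-terminal acetyltransferases, the enzyme family named in the title of the series, rose by small factors. Of 13 tested genes 10 rose and none fell, with a median log2 change of 0.62, and only 1 was beyond 2-fold by the test. Naa10, the catalytic subunit of the NatA complex, lies on chromosome X from 73916873 to 73921944 (minus strand) in GRCm38. It stood at 7.41 and 6.59 CPM at day 0 and 13.1 and 11.3 CPM at day 6 (log2 change 0.80, SE 0.14, adjusted p = 0.00105), the days do not overlap, and another gene overlaps 11.6% of its exons. Mean CPM per kilobase of annotated exon at day 6 was 2.96 for Naa10, 5.96 for Naa15, the auxiliary subunit of NatA, and 57.1 for Naa50, the catalytic subunit of NatE, which binds to NatA. This length joins the exons of all annotated transcripts of a gene and can exceed that of its main mRNA. The order of these levels is therefore uncertain. Naa15 rose from 64.97 and 67.4 to 91.7 and 92.1 CPM and Naa50 from 126 and 136 to 273 and 258 CPM. Naa35, Nat6 and Hypk did not pass the test. With library totals alone 8 rose and 1 was called lower.

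Insulin signalling genes moved in both directions. Of 23 tested genes 14 rose and 8 fell (60.9% and 34.8%, against 35.9% and 35.1% of all genes tested). The share that fell was near that of all genes. Slc2a4, the insulin-sensitive glucose transporter GLUT4, rose from 1.03 and 0.576 to 445 and 322 CPM (log2 change 8.86, SE 0.25, adjusted p = 3.62e-08), while the basal transporter Slc2a1 fell from 120.2 and 102 to 52.7 and 39.7 CPM. Akt2, the kinase isoform of insulin-driven glucose uptake, rose from 209.5 and 210.0 to 694 and 602 CPM and Akt1 fell from 365 and 359.7 to 163 and 190.0 CPM. The insulin receptor Insr rose from 53.7 and 53.3 to 267 and 247 CPM and the IGF1 receptor Igf1r fell from 55.7 and 60.5 to 16.4 and 25.2 CPM. Irs1 did not pass the test (51.7 and 54.3 CPM at day 0 and 55.9 and 52.99 CPM at day 6, with 30.9% exonic overlap), and Irs2 rose from 12.4 and 12.1 to 79.9 and 79.4 CPM. Pde3b, which carries insulin's brake on lipolysis, went from 10.2 and 11.4 to 845 and 678 CPM. Among the binding proteins of IGF, Igfbp4 fell from 1931 and 1887 to 176 and 191 CPM and Igfbp5 from 243 and 299.6 to 7.01 and 17.1 CPM, and Igfbp3 rose from 221 and 187 to 343 and 263 CPM. In glycolysis 11 of 19 tested genes rose and 4 fell (57.9% and 21.1%, against the same 35.9% and 35.1%). Pfkfb3 and Pfkfb1, which make the activator of phosphofructokinase, rose from 54.98 and 43.4 to 618 and 436 CPM and from 1.13 and 0.988 to 89.6 and 77.5 CPM, while hexokinase 1 (Hk1) fell from 147 and 131 to 73.8 and 78.9 CPM. Without library 76 of day 0 a single member of this list was called lower, and 2 without library 77 of day 6.

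Secreted proteins of the liver's acute-phase type were among the rises. Of 19 tested genes of complement and the acute phase 10 rose and 5 fell (52.6% and 26.3%, against 35.9% and 35.1% of all genes tested). The acute-phase gene Saa3 was among those that fell (mean 4.07 CPM at day 0 and 2.22 CPM at day 6, log2 change -0.86). Saa1 and Saa2 held too few counts to be tested. Haptoglobin (Hp) went from 68.4 and 91.1 to 1710.4 and 1453 CPM (log2 change 4.31, SE 0.17, adjusted p = 1.92e-07), lipocalin 2 (Lcn2) from 0.695 and 0.618 to 43.4 and 45.7 CPM, and the orosomucoid gene Orm1 had 2 and 1 counts at day 0 and 874 and 604 at day 6, with 20.4% of its 50-base stretches found in transcripts of other genes. Cfd (adipsin), a complement protease made by fat cells, rose from 18.6 and 29.2 to 247 and 211 CPM, and C3 from 164 and 224 to 438 and 462 CPM. C1s1, a protease of the classical complement pathway, fell from 296 and 346 to 131 and 179.7 CPM and its inhibitor Serping1 from 371 and 432 to 154 and 227 CPM. C1qa was called higher, but it is also a macrophage marker and its day 6 levels of 11.7 and 3.69 CPM differed as those markers did, and its call was kept in 5 of the 10 alternative analyses.

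Genes known as targets of the induction drugs, or as members of the pathways these drugs act on, moved in both directions between days 0 and 6. The part of the drugs in these values was not tested. Of 18 tested glucocorticoid targets 15 were higher and 3 lower than at day 0 (median log2 change 1.73). Fkbp5 stood at 24.5 and 26.7 CPM at day 0 and 287 and 211 CPM at day 6, Tsc22d3, which encodes GILZ, at 40.6 and 40.3 CPM at day 0 and 223 and 194 CPM at day 6, and Glul, glutamine synthetase, at 62.9 and 68.6 CPM at day 0 and 2504 and 2020.0 CPM at day 6 (log2 change 5.10, SE 0.14, adjusted p = 3.69e-08). Ddit4 fell from 195 and 170.3 to 70.2 and 65.1 CPM. Cyclic AMP targets were divided evenly, 10 higher and 11 lower of 22. Those higher included Pck1, Ppargc1a and the kinase subunits Prkar2b (from 30.5 and 33.6 to 984 and 869 CPM) and Prkaca (from 117 and 121 to 413 and 376 CPM). The phosphodiesterase Pde4b fell (from 26.9 and 23.5 to 5.58 and 4.64 CPM). Immediate-early genes went both ways. Nr4a1 (from 46.9 and 50.6 to 6.79 and 8.72 CPM), Junb (from 107 and 111 to 30.2 and 39.9 CPM), Fosb, Nr4a2 and Nr4a3 fell. Fos, Atf3 and Dusp1 rose, by 1.59, 2.11 and 0.60 on the log2 scale. In the prostaglandin pathway 7 of 16 rose and 9 fell (43.75% and 56.25%, against the same 35.9% and 35.1%). Ptgs2, the inducible cyclooxygenase that indomethacin blocks, fell from 15.4 and 15.6 to 0.982 and 1.84 CPM (log2 change -3.47, SE 0.25, adjusted p = 5.73e-06), the prostaglandin E synthase Ptges rose from 73.4 and 83.5 to 293 and 276 CPM, and Hpgd, which inactivates prostaglandins, rose from 1.62 and 2.22 to 23.7 and 15.01 CPM.

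**Figure D4:**
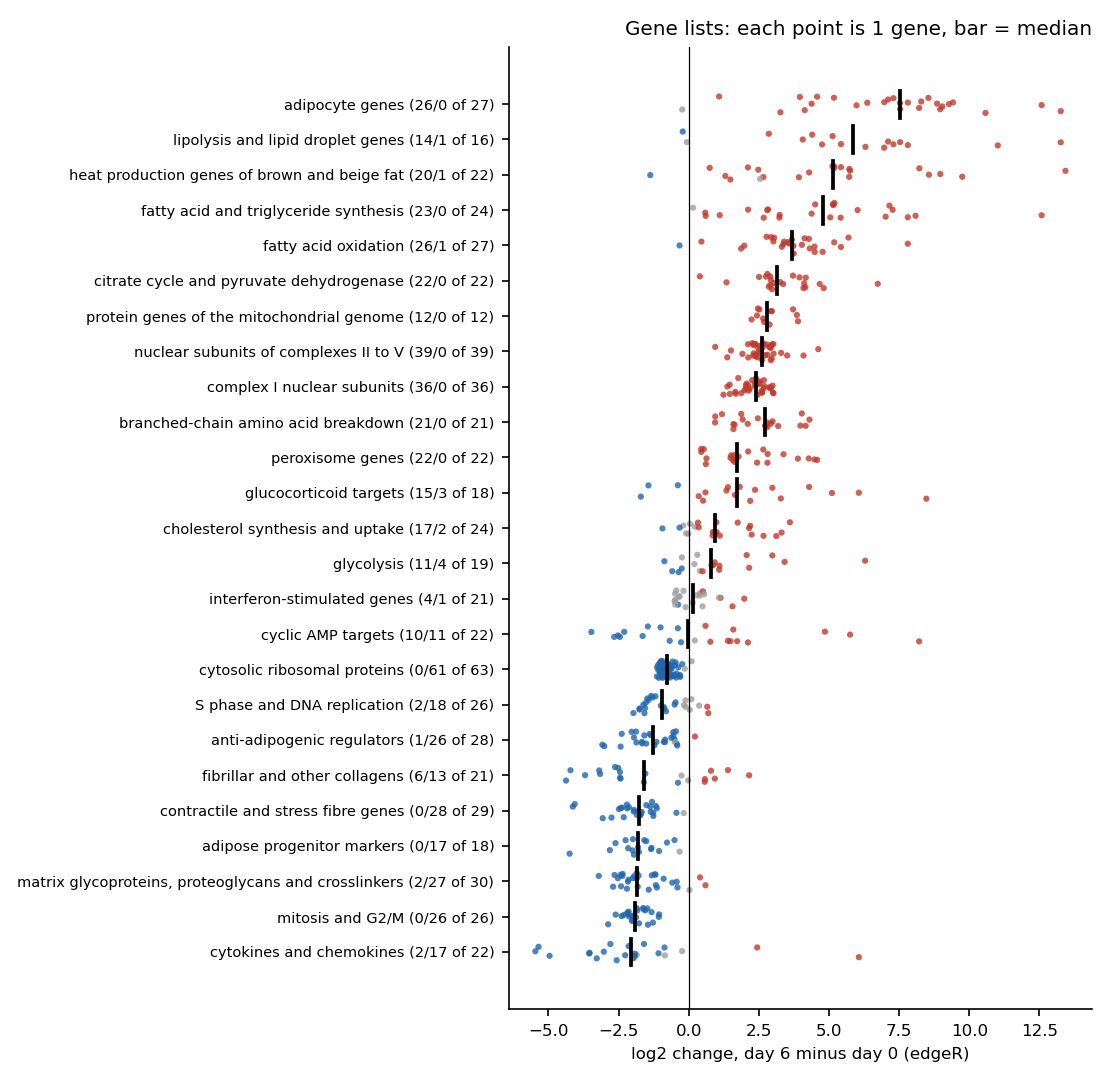
Each point is the fitted log2 change of 1 tested gene, by list, in red where it was called higher, blue where lower and grey where neither, with a black bar at the list's median and the numbers higher, lower and tested beside its name. Adipocyte genes have a median of 7.53 and cytokines and chemokines of -2.05, and the drawn genes of complex I, complexes II to V, the mitochondrial genome and the citrate cycle all lie to the right of 0.

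Genes of the fibrous matrix fell, while some of the basement membrane rose. Of 21 tested collagen genes 13 fell and 6 rose, and their summed level was 97832 and 88574 CPM at day 0 and 20716 and 26305 CPM at day 6. Col1a1, Col3a1 and Col1a2, the chains of collagens I and III, fell from 30728 and 26115 to 2457 and 3916 CPM (log2 change -3.16, SE 0.23, adjusted p = 6.1e-06), from 26277 and 23300.3 to 2169 and 3268 CPM and from 18388 and 17327 to 2296 and 3499 CPM, and Col1a1 and Col3a1 lost the most CPM of all genes, followed by fibronectin and Col1a2. Col14a1 and Col8a1 fell further in relative terms, by 4.37 and 3.69 on the log2 scale. Against this course Col4a1 rose from 1322 and 1404 to 3569 and 3624 CPM, Col4a2, the other main chain of the basement membrane collagen, from 1198 and 1246 to 2066 and 2173 CPM, and Col5a3 from 177 and 187 to 806 and 814 CPM (log2 change 2.15, SE 0.08, adjusted p = 1.37e-07). Col18a1 and Col15a1, collagens that sit beside basement membranes, rose by 0.93 and 0.58. Col6a3 did not pass the test (1344 and 1194 CPM at day 0 and 1207 and 1304 CPM at day 6; 95% interval of the log2 change -0.26 to 0.23), and Col6a1 was lower by only 0.38.

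Among 30 other matrix glycoproteins, proteoglycans and crosslinkers 27 fell and 2 rose (median log2 change -1.83). The 2 that rose are both laminin chains of basement membranes, Lama4 (from 482 and 470.4 to 694 and 748 CPM; log2 change 0.60, SE 0.09, adjusted p = 0.00035) and Lamc1 (from 778 and 818 to 984 and 1123 CPM; log2 change 0.40, SE 0.10, adjusted p = 0.00817), while the laminin chains Lamb2 and Lama2 fell by 0.89 and 0.43 and Lamb1 did not pass the test. Fibronectin (Fn1) fell from 21269.7 and 18199 to 2869.8 and 4470.4 CPM, fibrillin 1 (Fbn1) from 3864 and 3587 to 629.6 and 993 CPM, and Sparc, which binds collagen, from 11025 and 10309 to 3754 and 4197 CPM. Other basement membrane genes fell, nidogen 2 (Nid2) from 589.7 and 652 to 120.1 and 157 CPM, perlecan (Hspg2) from 1851 and 1932 to 749.6 and 917 CPM and Col4a5 by 1.54 on the log2 scale. With library totals alone 4 collagens were called higher in place of 6, and 1 gene of the glycoprotein list in place of 2. Matrix proteases and their inhibitors fell as well, 16 of 20, among them Mmp2 (from 1351 and 1338 to 287 and 449 CPM), Mmp14 (from 1445 and 1404 to 222 and 348 CPM) and Timp3 (from 474 and 463 to 35.8 and 49.3 CPM). Timp4, an inhibitor found in fat, rose from a low level (from 0.894 and 0.906 to 8.35 and 5.28 CPM), as did Adamts9 (from 29.7 and 32.1 to 83.3 and 79.7 CPM).

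**Figure D5:**
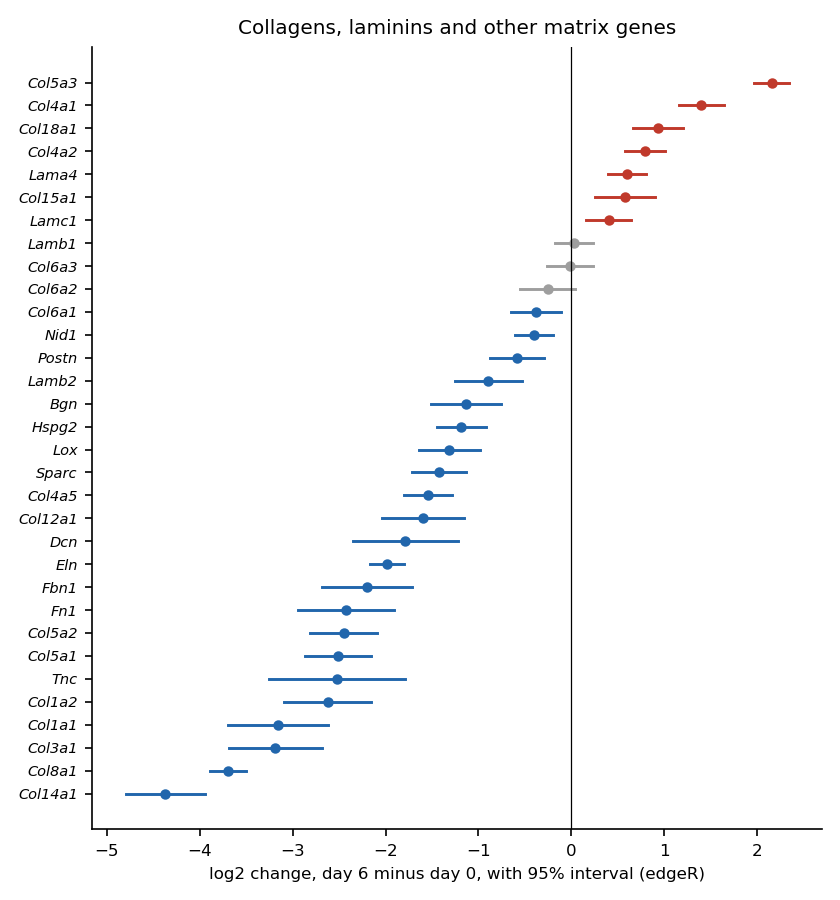
Fitted log2 change from day 0 to day 6 with its 95% interval for collagen, laminin and other matrix genes, in red where called higher, blue where lower and grey where neither. Col5a3, Col4a1, Col18a1, Col4a2, Lama4, Col15a1 and Lamc1 lie to the right of 0, while the fibrillar collagens Col1a1, Col1a2 and Col3a1 lie between -3.19 and -2.62.

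Genes of stress fibres fell. Of 29 tested genes of the contractile cytoskeleton 28 fell and none rose (median log2 change -1.79). Smooth muscle actin (Acta2) went from 1448 and 1417 to 156 and 269.7 CPM, calponin (Cnn1) from 129 and 121 to 6.34 and 8.67 CPM (log2 change -4.06, SE 0.13, adjusted p = 5.6e-08), Actg2 from 79.3 and 67.9 to 3.62 and 4.84 CPM and the myosin light chain Myl9 from 219.6 and 235 to 21.8 and 32.7 CPM. Beta-actin (Actb) fell from 1712 and 1789 to 728 and 862 CPM. The factor SRF, whose own gene fell by 0.44 on the log2 scale, activates many genes of this group through the CArG box, and promoters of members that hold the box are shown here. In the RefSeq promoter table (GRCm38.p6, from 250 bases before to 50 after each start, 27025 genes) 24 of the 29 genes had an entry, and 5 of these (20.8%) held a CArG box on either strand, against 1.81% of all genes in the table and 1.63% of the tested genes with an entry. The 5 are Actg1, Cnn2, Myl9, Srf and Vcl. The share was 2.65% among all genes that fell beyond 2-fold. In the stretches below, written 5′ to 3′ on the strand of the gene and lying before its start, capitals mark the CArG box.
Myl9 (GRCm38.p6, chr2:156775263-156775362, plus strand): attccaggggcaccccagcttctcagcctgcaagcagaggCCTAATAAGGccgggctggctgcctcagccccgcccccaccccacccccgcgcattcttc
Cnn2 (GRCm38.p6, chr10:79988504-79988599, plus strand): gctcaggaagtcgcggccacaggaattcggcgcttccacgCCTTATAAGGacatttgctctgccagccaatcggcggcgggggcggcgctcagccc
Srf (GRCm38.p6, chr17:46556175-46556284, minus strand): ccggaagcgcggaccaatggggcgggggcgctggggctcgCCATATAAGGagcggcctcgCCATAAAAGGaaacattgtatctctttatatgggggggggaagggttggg
The Srf stretch holds 2 boxes, beginning 82 and 62 bases before the start. The box begins 161 bases before it in Myl9 and 56 in Cnn2. Cnn2 fell from 455 and 464 to 81.1 and 119.5 CPM, and Vcl, which encodes vinculin, did not pass the test (325 and 339.9 CPM at day 0 and 284 and 304 CPM at day 6; 25.5% exonic overlap). A match is a description of the letters only. The search counted exact matches to a fixed pattern, so boxes that vary from it were not counted. Cnn1 and Acta2 also fell and were not among the 5 genes with a match. A list of YAP and TAZ, the factors that sense tension, with target and matricellular genes, fell for the most part: of 15 tested 13 fell and 1 rose. Ctgf fell from 219 and 221 to 34.7 and 51.5 CPM, Thbs1 from 9931 and 9396 to 1427 and 2204 CPM and Ankrd1 from 5.96 and 5.97 to 1.16 and 0.399 CPM. Cyr61 was lower by only 0.44 on the log2 scale, and Amotl2 did not pass the test (log2 change -0.15). The gene of TAZ itself, Wwtr1, was the 1 that rose (from 158 and 145 to 258 and 243 CPM; log2 change 0.73, SE 0.08, adjusted p = 4.65e-05), and Yap1 was lower by 0.34.

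Markers of adipose precursors fell, 17 of 18 tested. Dpp4 and Pi16, which mark early interstitial progenitors, fell from 7.48 and 12.5 to 0.402 and 0.648 CPM and from 17.2 and 15.7 to 1.25 and 3.54 CPM, Cd34 from 49.2 and 46.5 to 6.21 and 9.57 CPM, and the growth factor receptor Pdgfra from 581 and 657 to 189 and 305 CPM. Dlk1 (Pref-1), which holds precursors back, was already low and moved little (27.8 and 27.5 CPM at day 0 and 15.2 and 23.9 CPM at day 6; log2 change -0.50, SE 0.18, adjusted p = 0.0324). Ly6a (Sca-1) did not pass the test, at 585 and 534 CPM at day 0 and 371 and 523 CPM at day 6. For Dpp4, Pi16, Cd34 and Pdgfra alike, library 76 was the lower of the day 6 libraries. Of 28 tested regulators that oppose adipocyte formation 26 fell. Runx1 went from 121 and 115 to 10.6 and 17.5 CPM (log2 change -3.08, SE 0.19, adjusted p = 1.94e-06), Klf2 from 40.7 and 39.4 to 6.39 and 8.57 CPM, Gata2, a direct repressor of Pparg, from 17.4 and 15.1 to 3.35 and 4.64 CPM, and Wnt5a from 126 and 138 to 35.1 and 33.2 CPM. The TGF beta receptor gene Tgfbr2 fell from 493 and 506 to 193 and 236 CPM and its effector Smad3 from 85.9 and 83.1 to 35.7 and 40.6 CPM. Tcf7l2 was called higher by 0.22 on the log2 scale, a call kept in 2 of the 10 alternative analyses and turned to -0.02 with library totals alone.

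Cell division genes fell below the level of the confluent culture. All 26 tested genes of mitosis fell, 23 beyond 2-fold, with a median log2 change of -1.91. Mki67, the proliferation marker, went from 49.9 and 46.6 to 9.6 and 12.1 CPM (log2 change -2.16, SE 0.11, adjusted p = 6.39e-07), Top2a, which untangles chromosomes, from 70.9 and 74.8 to 14.3 and 19.2 CPM, and Kif23, needed for cytokinesis, from 11.3 and 11.5 to 1.34 and 1.79 CPM. Genes of DNA replication fell less evenly, 18 of 26, while 2 rose. The helicase genes Mcm2 and Mcm6 fell from 32.7 and 34.9 to 10.99 and 12.01 CPM and from 35.5 and 39.7 to 11.4 and 14.8 CPM, whereas Rrm1 and Rrm2, the subunits of ribonucleotide reductase, did not pass the test, and Cdc45 rose from 6.79 and 6.999 to 12.5 and 9.87 CPM and Ccne1 by 0.66 on the log2 scale. Many genes of mitosis carry the cell cycle homology region, TTTGAA, through which they are switched off in resting cells. Of the 26, 22 had an entry in the same promoter table, and 17 of these (77.3%) held TTTGAA on either strand, against 20.2% of all genes in the table and 14.1% of the tested genes with an entry. Among all genes that fell beyond 2-fold the share was 15.5%. Stretches of 4 of the 17 promoters are shown up to the base before the start, with TTTGAA, or TTCAAA where it lies on the other strand, in capitals.
Cdk1 (GRCm38.p6, chr10:69352913-69353023, minus strand): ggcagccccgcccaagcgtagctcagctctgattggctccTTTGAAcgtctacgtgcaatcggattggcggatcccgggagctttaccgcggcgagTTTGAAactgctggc
Cdc20 (GRCm38.p6, chr4:118437344-118437401, minus strand): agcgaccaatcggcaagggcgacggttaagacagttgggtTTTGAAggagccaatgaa
Ube2c (GRCm38.p6, chr2:164769860-164769928, plus strand): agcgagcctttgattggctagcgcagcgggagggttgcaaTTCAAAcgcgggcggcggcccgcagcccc
Top2a (GRCm38.p6, chr11:99024190-99024408, minus strand): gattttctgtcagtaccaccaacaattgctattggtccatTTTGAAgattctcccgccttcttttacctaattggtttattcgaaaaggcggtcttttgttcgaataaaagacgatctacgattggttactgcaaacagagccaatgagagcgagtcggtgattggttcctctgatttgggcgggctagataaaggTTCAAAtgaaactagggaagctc
The match nearest to the start begins 15 bases before it in Cdk1, 18 in Cdc20, 29 in Ube2c and 23 in Top2a. Cdk1 showed the smallest change of the list (log2 change -1.05, SE 0.11, adjusted p = 5.77e-05), and Cdc20 fell from 28.3 and 31.00 to 6.48 and 9.02 CPM.

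The G1 cyclins and CDK inhibitors were mixed, 6 of 17 rising and 4 falling (35.3% and 23.5%, against 35.9% and 35.1% of all genes tested). Rb1, the retinoblastoma gene, rose from 13.9 and 14.7 to 74.9 and 67.6 CPM (log2 change 2.32, SE 0.09, adjusted p = 1.47e-07), and the CDK inhibitors Cdkn2c and Cdkn1a from 34.4 and 33.4 to 142 and 124 CPM and from 306 and 309.8 to 502 and 476 CPM. Cdkn1b (p27) fell from 107 and 109.8 to 54.3 and 52.9 CPM, as did Cdk4 (from 177 and 175 to 89.2 and 103 CPM), and Gas1, a gene of growth arrest in fibroblasts, fell from 1592 and 1551 to 327 and 435 CPM. Cyclin D1 (Ccnd1) and Myc did not pass the test. With library totals alone 7 of this list were lower in place of 4.

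Ribosomal protein genes fell by a narrow range of small amounts. Of 63 tested 61 fell and none rose, none of them beyond 2-fold by the test, with log2 changes of -1.13 to 0.11 and a median of -0.77. Rps2 went from 1754 and 1709.9 to 822 and 938 CPM and Rplp0 from 2177 and 2058 to 915 and 1089 CPM. Summed over the list the level was 40098 and 38210.2 CPM at day 0 and 21798 and 23691 CPM at day 6. Many of these genes have near-identical copies, so counts of single members are uncertain. Genes of protein folding in the endoplasmic reticulum fell too, 15 of 20, including the chaperone Hspa5 (from 809 and 796 to 538 and 565 CPM), Calr (from 1069 and 1090.3 to 584 and 682 CPM) and the stress gene Trib3 (from 81.1 and 61.1 to 13.7 and 10.2 CPM), while Dnajb9 rose from 38.03 and 40.7 to 253 and 249 CPM (log2 change 2.67, SE 0.08, adjusted p = 4.93e-08).

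Cytokine and chemokine genes fell, 17 of 22, with a median log2 change of -2.05. Cxcl14 went from 769 and 839 to 10.7 and 25.97 CPM (log2 change -5.47, SE 0.35, adjusted p = 2.6e-06), Cxcl5 from 114 and 89.4 to 1.38 and 3.69 CPM, Cxcl12 from 1316 and 1351 to 195 and 255 CPM and Ccl7 from 53.8 and 43.2 to 9.07 and 15.95 CPM. Lcn2 and Cxcl13 rose. Few interferon-stimulated genes were called: 4 of 21 rose and 1 fell, and the days did not overlap for 6 of the 21, against 12566 of all 14459 genes tested, with summed levels of 673 and 398 CPM at day 0 and 477 and 718 CPM at day 6. Library 77 was lower than 76 at day 0 and higher at day 6. The count changed with the analysis, to 1 and 1 with library totals alone, to 9 and 7 without the filter on low counts, to 1 and 1 without library 77 of day 0 and to 2 and 5 without library 77 of day 6. Genes of MHC class I rose in 8 of 13 and fell in 2, or in 4 without library 77 of day 6 and 5 with library totals alone. H2-K1 went from 169.9 and 169.9 to 535 and 554 CPM (log2 change 1.68, SE 0.08, adjusted p = 4.59e-07), B2m from 279 and 273 to 491 and 609 CPM and their activator Nlrc5 from 2.52 and 2.47 to 10.8 and 13.1 CPM, with the days apart.

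Antioxidant genes rose in 20 of 30 and fell in 5. Among those that rose were mitochondrial and peroxisomal members, Prdx3 from 48.99 and 49.4 to 789 and 654 CPM, Sod2 from 50.1 and 57.1 to 423 and 373 CPM and catalase (Cat) from 73.2 and 77.5 to 820.5 and 748 CPM, and Mgst3 led the list (from 6.98 and 8.32 to 344 and 272 CPM). Sod1, Mgst1 and Prdx1 rose too (log2 changes 2.60, 2.98 and 1.36). Sod3, Gpx7 and Prdx4, whose products are secreted or lie in the endoplasmic reticulum, fell from 648 and 611 to 179 and 206 CPM, from 77.6 and 76.4 to 17.1 and 23.9 CPM and from 74.2 and 74.6 to 29.1 and 35.1 CPM. Gpx3 did not pass the test (log2 change -0.30). Whether the changes differ by cell compartment was not tested. Hox genes, which keep the positional identity of a depot, were mixed, 6 of 25 rising and 11 falling, or 7 falling without library 76 of day 0, library 77 of day 0 or library 76 of day 6. The shares of Hox genes rising and falling were 24% and 44%, against 35.9% and 35.1% of all genes tested. Hoxa9 rose from 18.4 and 20.3 to 79.4 and 64.6 CPM and Hoxb9 fell from 53.3 and 52.00 to 8.75 and 11.9 CPM, while Hoxc8 did not pass the test, at 48.5 and 49.03 CPM at day 0 and 49.3 and 50.5 CPM at day 6. Clock genes were mixed as well, 8 rising and 5 falling of 19 (6 and 8 with library totals alone), with Per1 higher (from 35.7 and 32.5 to 95.03 and 84.9 CPM) and Nr1d2 and Dbp lower (from 54.7 and 55.7 to 29.8 and 29.9 CPM and from 42.8 and 38.5 to 23.4 and 22.3 CPM). The shares of clock genes rising and falling were 42.1% and 26.3%, against the same 35.9% and 35.1%. No label gives the time of day at collection, and its part in the values of the clock genes was not tested.

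Of 18 tested genes that often serve as references for quantitative PCR 10 rose and 5 fell, where 70.9% of all genes tested were called, and 83.2% of the most abundant when all are split into 3 equal classes by level. Gapdh rose from 1603 and 1422 to 3095 and 2219 CPM (log2 change 0.81, SE 0.16, adjusted p = 0.00223) and Hprt from 41.2 and 42.6 to 169 and 145 CPM, while Actb fell from 1712 and 1789 to 728 and 862 CPM and Rplp0 by 1.08 on the log2 scale. Tbp (14.6 and 15.2 CPM at day 0 and 16.1 and 15.95 CPM at day 6), Gusb (79.4 and 81.4 CPM at day 0 and 66.5 and 75.5 CPM at day 6) and Pgk1 did not pass the test. Among abundant genes that did not pass it and had an interval of the log2 change within 0.5 of 0, the first by level were Nedd4, a ubiquitin ligase (2237 and 2200.1 CPM at day 0 and 2131 and 2237 CPM at day 6), Col6a3, Ftl1, the ferritin light chain (1053 and 1105 CPM at day 0 and 1066 and 1056 CPM at day 6, with 58.4% of its 50-base stretches shared), Lgals1, Rtn4 and Bsg.

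Some genes were silent on 1 of the days. At day 0, 36 genes with at least 1 CPM in both libraries of day 6 had 0 counts in both libraries, and in the other direction there was 1 such gene. Plbd1, which encodes a phospholipase B-like lysosomal protein, went from 0 counts to 1632 and 1327, at least 624-fold higher when set against the floor of 3 counts per library. Sptlc3, a subunit of serine palmitoyltransferase, was at least 552-fold higher, Gys2, the liver form of glycogen synthase, at least 117-fold, Pitx3, a homeobox factor, at least 102-fold, and Apoc3, an apolipoprotein, at least 68.4-fold. Acot5, an acyl-CoA thioesterase, was at least 154-fold higher, with 22.1% of its 50-base stretches found in transcripts of other genes. Cyp2e1, a cytochrome P450 known from the liver, rose from 0.0331 and 0.0823 to 266 and 176 CPM. Kcns1, a modulatory potassium channel subunit, was the gene lost in the other direction, with 1.79 and 1.52 CPM at day 0 and 0 counts at day 6, at least 11.7-fold lower.

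Among genes that were well above the floor at day 0 the largest falls included secreted and surface proteins. Tnmd, tenomodulin of tendon and fat precursors, fell from 49.3 and 25.3 to 0.536 and 0.499 CPM (log2 change -6.16, SE 0.46, adjusted p = 6.12e-06). The day 0 libraries differed for it, yet both lay far above day 6. C1qtnf3 fell from 31.3 and 24.99 to 0.893 and 0.748 CPM, Tgfbi, an adhesion protein induced by TGF beta, from 81.02 and 58.9 to 2.01 and 2.34 CPM, Tnfsf11, which encodes RANKL, from 8.27 and 12.7 to 0.179 and 0.499 CPM, Lrrc15 from 27.01 and 28.2 to 0.804 and 1.55 CPM and Aldh1a2, which makes retinoic acid, from 74.2 and 65.7 to 1.61 and 4.24 CPM. The Wnt antagonist Sfrp1 lost more CPM than any of these, falling from 6205 and 6432 to 774 and 1301 CPM.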

How the data were processed

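RNA of 6 libraries was sequenced, of which the 4 of days 0 and 6 are compared. The deposited table holds raw counts per gene, made by the authors with TopHat2 2.0.13 and HTSeq 0.9.1 on mm10 (GRCm38), per the submitters' processing notes. Its column names speak of RPKM, but the values are whole numbers that sum to different totals, so they were used as counts. Which annotation was counted against is not stated in the sources used here. Summary lines that name no gene were left out of library sizes: reads in no gene made up 2.62% to 2.89% and ambiguous reads 4.40% to 4.91% of the 4 libraries' totals. Of the symbols, 27 had been turned into dates and are not named. Some single genes are not reported here.

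Counts were filtered and TMM-scaled, and edgeR 4.0.16 (R 4.3.3) fitted its quasi-likelihood model to all 6 libraries, which share one estimate of the spread with 3 residual degrees of freedom. Tests were 2-sided with Benjamini-Hochberg adjustment over 14459 genes and a threshold of 0.05, and glmTreat tested against a change of 2-fold. CPM were computed from the counts with TMM scaling. The fitting script was tested on simulated data in which few genes changed. Most genes were called in the real data, so that test does not bear on the choice of scaling. Alternatives were another scaling (DESeq2 size factors or library totals alone), no filter on low counts, DESeq2 1.42.0, the 4 libraries alone, a replicate block, and leaving out each library. Promoters came from RefSeq (GRCm38.p6) and positions and transcripts from GENCODE vM21, matched by symbol. Sites for the factors ERR and NRF1 were searched for too. Among genes with an entry they were held by 0 and 1 of 32 for complex I and by 2 and 4 of 30 for complexes II to V. For the citrate cycle they were held by 0 and 0 of 20, and for fatty acid oxidation by 0 and 2 of 21. Of the tested genes with an entry 0.337% and 2.24% held them. Tables and figures were made with Python 3.11.15, pandas 2.3.3 and matplotlib 3.10.9.

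The comparison, the gene lists and the motifs were chosen with earlier results of these data known. Genes were named by rule: 8 genes of the study's question, the 12 largest rises and falls, the 12 largest gains and losses in CPM, up to 9 per list (3 by level, 3 by change, 3 against the list's direction), 6 abundant genes that did not pass the test, and 6 in each direction with 0 counts on 1 day. Other list members in the text, such as Acta2, Prdm16, Dio2, Cox8b, Col4a2, Lamb1, Cdk1 and the low mitochondrial genes, and the promoters shown were chosen after their values were seen. Counting intervals and floors cover counting error only. Depth limited precision: the median SE of the log2 change was 0.34 in the third of genes with the lowest level and 0.08 in the highest.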

Additional observations from a re-analysis of the deposited data

Results flagged for a closer look

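Sptssb, which encodes a small subunit of serine palmitoyltransferase, had 0 counts in the 4 libraries of days 0 and 6 but 99 and 241 counts in the day 2 libraries. The day 2 libraries enter the filter, the scaling and the estimate of the spread, but their levels are not compared. Its mean level at day 2 was 6.01 CPM.

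Alignments set aside as not unique, which no gene count includes, made up 9.05% and 7.50% of the totals in the day 6 libraries, above the 4.42% and 4.16% at day 0. Their part in the results was not tested.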

How the results depend on the processing

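The number of genes called in the comparison, 10253, kept within 1.5 times that value in all 10 alternatives. It was 9935 with the libraries of days 0 and 6 alone, 10280 with DESeq2 size factors in edgeR, 10443 with library totals alone, 10571 without a filter on low counts and 9500 with DESeq2. Leaving out each library in turn gave 8888 to 10295 genes called, where the day left with a lone library is assumed to vary like the others. Of the 5184 calls higher and 5069 lower, 3797 and 3945 were called in the same direction in all 10. With the number as a replicate block 10356 genes were called, 5214 higher and 5142 lower. Deviations of same-numbered libraries on days 0 and 6 correlated at r = 0.112 across 14459 genes, which are not independent replicates, and the labels do not say that the number marks a shared source, so the block was not used for the main values. Among the named genes 4 changed sign, all with library totals alone: Tcf7l2 to a log2 change of -0.0249, Ptges3 to -0.0513, Tef to -0.0407 and Hoxc8 to -0.214. The cause was not tested, beyond that this scaling moved all genes down together. Some lists with a median near 0 changed sign: the cyclic AMP median of -0.03 became 0.12 without library 77 of day 0, and the clock median of 0.06 became -0.18 with library totals alone. Depth limits genes near the floor of 0.0993 to 0.150 CPM, such as Ucp1 and Cidea.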
